A study of Hydractinia symbiolongicarpus with 45 samples.

Results

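Polynem is a POU-domain transcription factor gene of the colonial hydroid Hydractinia symbiolongicarpus, and it is 1 gene model (HyS0098.14) of the 22022 whose RNA was counted in the series. It was chosen by its identifier, not by its values. RNA of wild-type unfertilized eggs, whole embryos and larvae was sequenced from poly(A)+ libraries, made of transcripts that carry a poly(A) tail, and from rRNA-depleted libraries, from which ribosomal RNA was taken out and which keep tailed and untailed transcripts alike. The libraries cover embryos at 0.5, 1, 2, 3, 4, 5, 6 and 7 hours post fertilization (h.p.f.), larvae at 24, 48 and 72 h.p.f. (poly(A)+ only), and 7 h.p.f. embryos kept in 20 µM Triptolide, an inhibitor of transcription by RNA polymerase II, or in its vehicle, 0.5% DMSO, against the unfertilized egg as the starting point. Each library comes from embryos pooled from 1 clutch, named by a letter from A to G, and all eggs and embryos are wild type. Eggs were taken from clutches A, C and D, the stages at 0.5 and 1 h.p.f. from A, those at 2, 3 and 4 h.p.f. from A and C, and those at 5, 6 and 7 h.p.f. from B, with clutch D added in poly(A)+ at 7 h.p.f. Clutches D and G gave the treated embryos, and E and F the larvae.

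POU-domain proteins bind DNA through a POU-specific domain joined by a linker to a POU homeodomain. Their vertebrate members include Oct4 of mammals, known from pluripotent stem cells, and Pou5f3 of zebrafish, a maternally supplied factor that takes part in switching on the embryonic genome. Polynem was described from Hydractinia echinata, where it marks the migratory stem cells called i-cells and embryonic cells. In an early embryo a transcript can come from the mother, laid down in the egg, or from the embryo's own genome, and Triptolide blocks new transcription, with other effects on cells also possible.

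Polynem counts came to 67 to 841 per poly(A)+ library (median 457) and to 87 to 958 per rRNA-depleted library (median 498), in libraries of 3107733 to 32015981 and of 3503063 to 20464403 counts in all. Its count was a whole number in 45 of 45 libraries and no other gene model had the same counts, so reads were not visibly shared out between Polynem and a copy. The 95% exact Poisson interval of a single library spans 6.39% to 24.7% of the value to either side, and it covers counting error only. Among poly(A)+ libraries those of clutch B are the shallow ones, with 67 to 166 Polynem counts. Levels are given in TPM, a share of all transcripts scaled for length, computed from the counts and the coding length of 1257 bases.

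Polynem RNA was present in the egg and at every later stage. Whole eggs and animals were measured, so fewer cells with Polynem and less Polynem RNA per cell cannot be told apart at any stage. In poly(A)+ libraries the egg held 33.7 ± 13.2 TPM (SD, n = 3), which is lower than 6574 of the 22022 gene models (29.9%). In rRNA-depleted libraries the egg held 54.7 ± 16.6 TPM (SD, n = 3), lower than 5914 gene models (26.9%). Across the 12 untreated poly(A)+ stages the highest stage mean was 2.03 times the lowest, where the median of 10078 gene models with at least 1 TPM at every stage was 4.74 times and 6.61% of them had a smaller range. Across the 9 untreated rRNA-depleted stages the ratio was 1.85, close to the median of 2.01 over 10578 gene models. By this ratio Polynem stood near the steady end of the gene models in poly(A)+ libraries and near the middle in rRNA-depleted libraries. Only the poly(A)+ stages take in larvae, while the rRNA-depleted stages end at 7 h.p.f., so these standings are over unlike stages.

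In poly(A)+ libraries the untreated stages fall in the order egg (33.7 TPM), 7 h.p.f. (29.8 TPM), 4 h.p.f. (27.9 TPM), 2 h.p.f. (27.0 TPM), 3 h.p.f. (26.5 TPM), 6 h.p.f. (22.2 TPM), 1 h.p.f. (21.7 TPM), 0.5 h.p.f. (21.6 TPM), 5 h.p.f. (20.6 TPM), 24 h.p.f. (18.1 TPM), 72 h.p.f. (16.7 TPM) and 48 h.p.f. (16.6 TPM). With the treated embryos placed among them (26.7 TPM in Triptolide, 27.7 TPM in DMSO), no neighbours in this order were called different beyond the spread between libraries, and the adjusted p ran between 0.477 and 1 (edgeR's quasi-likelihood F test, two-sided, Benjamini-Hochberg adjustment over all genes). In rRNA-depleted libraries the order was egg (54.7 TPM), 3 h.p.f. (49.9 TPM), 6 h.p.f. (49.8 TPM), 2 h.p.f. (47.3 TPM), 7 h.p.f. (46.0 TPM), 4 h.p.f. (35.6 TPM), 1 h.p.f. (33.6 TPM), 5 h.p.f. (33.4 TPM) and 0.5 h.p.f. (29.5 TPM), with Triptolide above the egg (65.2 TPM) and DMSO between 7 and 4 h.p.f. (40.2 TPM). Here too no neighbours were called, with adjusted p between 0.527 and 1. The stages at 0.5, 1 and 5 h.p.f., the lowest untreated means here, hold no library of clutch C or D. Those at 6 and 7 h.p.f., of clutch B alone, hold none either and had 49.8 and 46.0 TPM. Stage and clutch cannot be told apart in this order.

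**Figure D1:**
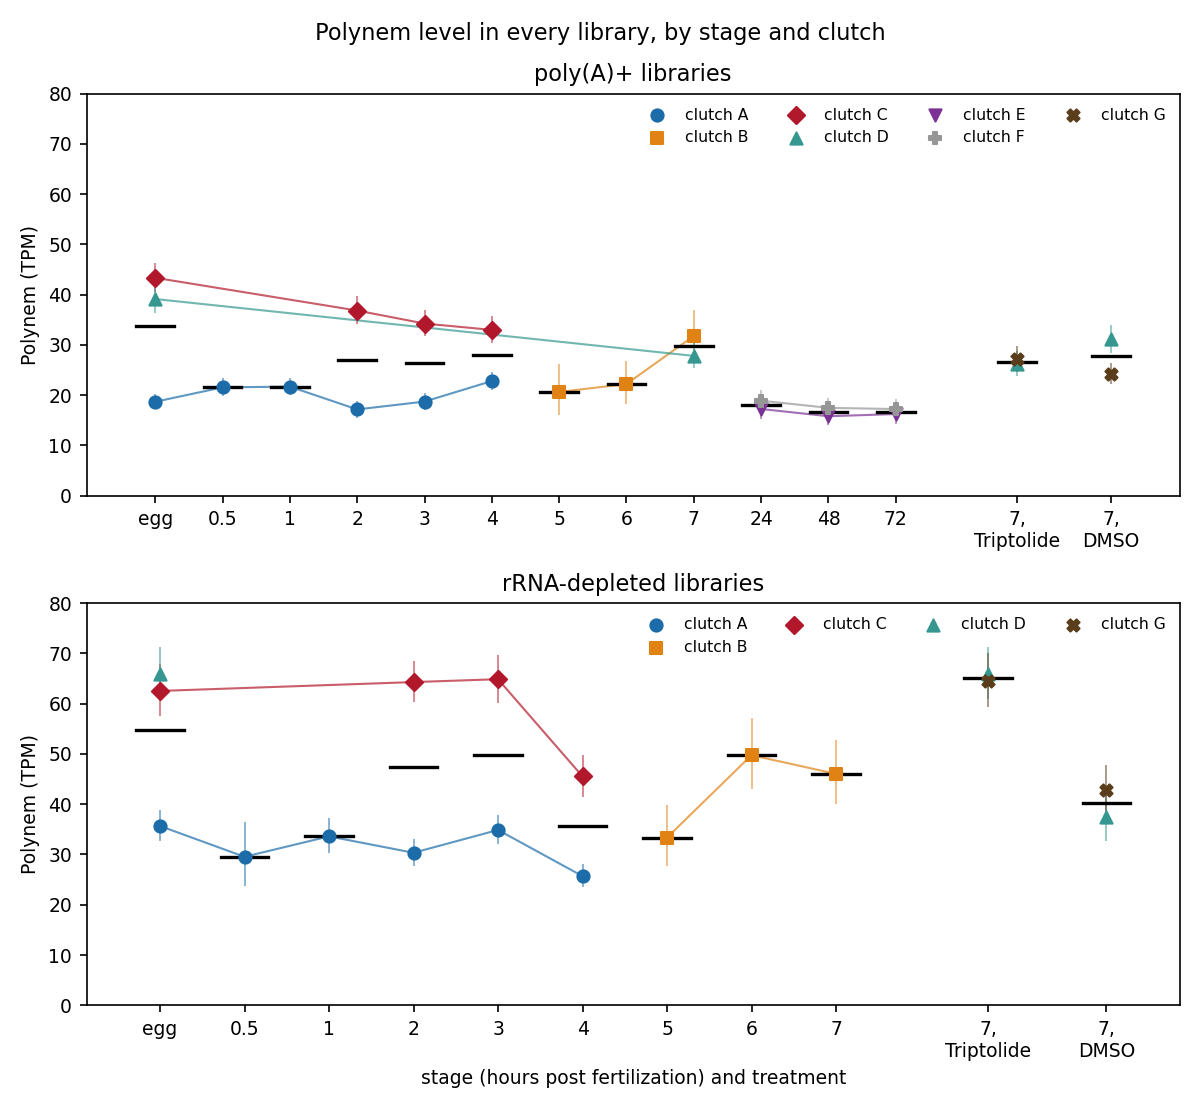
Polynem level in TPM (y axis) in each of 25 poly(A)+ libraries (top) and 18 rRNA-depleted libraries (bottom) against stage in hours post fertilization and treatment (x axis). Symbols mark the clutch, thin lines join untreated libraries of 1 clutch, vertical bars are 95% exact Poisson intervals of the count and black bars are stage means; clutch A lies at 17.2 to 22.8 TPM in poly(A)+ libraries, below clutch C at 33.0 to 43.3 TPM.

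The first question is whether Polynem changes from the egg through cleavage and the blastula to 7 h.p.f. in tailed RNA. The single clutch A libraries had 21.6 TPM of Polynem at 0.5 h.p.f. and 21.7 TPM 1 hour after fertilization. In clutch A it had 17.2, 18.7 and 22.8 TPM at 2, 3 and 4 h.p.f., and in clutch C 36.8, 34.3 and 33.0 TPM at the same stages. The clutch B libraries gave 20.6 TPM at 5 h.p.f., 22.2 TPM at 6 h.p.f., then 31.8 TPM at 7 h.p.f., and clutch D gave 27.8 TPM at 7 h.p.f., against 18.7, 43.3 and 39.1 TPM in the eggs of clutches A, C and D. Every embryonic library lay between the lowest egg library and the highest except clutch A at 2 h.p.f., so the stages overlap the egg. Polynem was not called at any stage up to 7 h.p.f. Its log2 fold change over the egg was -0.28 at 4 h.p.f. (SE 0.30, adjusted p = 0.652) and -0.17 at 7 h.p.f. (SE 0.30, adjusted p = 0.705, 95% interval -0.81 to 0.47). Of all 18928 genes tested, 19.5% were called at 4 h.p.f., and by 7 h.p.f. 48.3% were.

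Stages of 1 clutch can be set against the egg of that clutch. In clutch A the libraries at 0.5 to 4 h.p.f. held 0.919 to 1.22 times the TPM of the clutch A egg. In clutch C they held 0.850 times the egg at 2 h.p.f., 0.790 times at 3 h.p.f. and 0.761 times at 4 h.p.f., so clutch C was lower than its egg at each of these stages while clutch A was above its egg at 4 h.p.f. In clutch D the 7 h.p.f. library held 0.711 times the TPM of its egg. With the clutch letter as a replicate block no stage was called either, and the values were -0.08 on the log2 scale at 4 h.p.f. (adjusted p = 0.956), -1.06 at 5 h.p.f. (adjusted p = 0.175), -0.93 at 6 h.p.f. (adjusted p = 0.180) and -0.45 at 7 h.p.f. (adjusted p = 0.252). Of all genes, 17.1%, 6.60%, 11.8% and 29.9% were called at these stages in that fit. The block moved the change by more than 1.5 times at each of these 4 stages, and in that fit clutch B meets the egg only through the clutch D library at 7 h.p.f.

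In rRNA-depleted libraries too, Polynem was called at no stage in the fit of all clutches. Clutch A had 29.5 TPM of Polynem at 0.5 h.p.f. and 33.6 TPM 1 hour after fertilization. At 2, 3 and 4 h.p.f. it had 30.3, 34.9 and 25.7 TPM in clutch A and 64.3, 64.9 and 45.5 TPM in clutch C. In clutch B it had 33.4 TPM at 5 h.p.f., 49.8 TPM at 6 h.p.f., then 46.0 TPM at 7 h.p.f., against 35.7, 62.53 and 65.9 TPM in the eggs of clutches A, C and D. The level at 4 h.p.f. was below the egg in both clutches, at 0.721 times in A and 0.728 times in C. From 4 h.p.f. onwards gene models that share their counts with the histone scaffold HyS0385 took up 15.2% to 20.6% of the TPM total of untreated and DMSO stage means, against 0.538% in the egg. Without those models the 4 h.p.f. libraries held 0.892 and 0.816 times the TPM of their eggs. Its log2 fold change over the egg was -0.28 at 4 h.p.f. (SE 0.33, adjusted p = 0.966, where 3.46% of 15944 genes were called) and 0.13 at 7 h.p.f. (SE 0.44, adjusted p = 0.859, where 42.7% were called). A clutch block left 4 h.p.f. uncalled at -0.11 on the log2 scale (adjusted p = 0.773, 95% interval -0.32 to 0.11, where 5.41% of genes were called) and could not be fitted for 5, 6 and 7 h.p.f. against the egg, since clutch B shares no stage with another clutch in this library type.

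Over all pairs of groups Polynem was called in 0 of 91 poly(A)+ comparisons and in 0 of 55 rRNA-depleted comparisons by edgeR's quasi-likelihood F test, and an unadjusted p under 0.05 was reached in 0 and 1 of them. The share of all genes called in these comparisons went up to 76.1% and 50.6%. DESeq2, run on 27 and 19 of these comparisons, called 0 and 0. The 1 low unadjusted p belonged to Triptolide against 0.5 h.p.f. in rRNA-depleted libraries, the highest and the lowest mean of that library type (log2 fold change 1.16, edgeR adjusted p = 0.172). Stages that follow each other in time were not called either in these fits. In clutch B the log2 fold change was 0.40 at 7 against 6 h.p.f. in poly(A)+ libraries, clutch D included at 7 h.p.f. (adjusted p = 0.844), and 0.51 at 6 against 5 h.p.f. in rRNA-depleted libraries (adjusted p = 0.642). Without clutch A, in a fit added after the values had been seen, the change at 6 against 5 h.p.f. in rRNA-depleted libraries was called higher (0.55). Both stages hold 1 clutch B library each, so the spread is borrowed from other stages. Leaving out clutch A changed neither of the libraries compared.

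**Figure D2:**
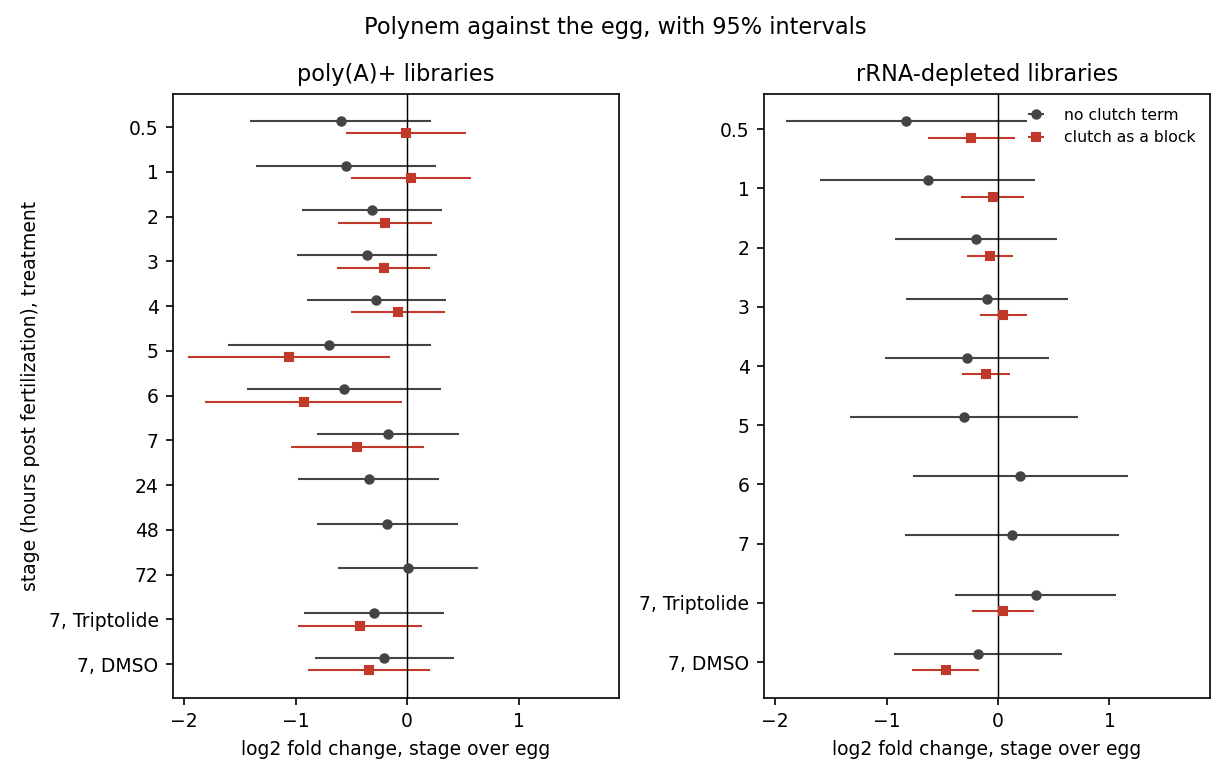
Log2 fold change of Polynem over the egg (x axis) for each stage and treatment (y axis) in poly(A)+ libraries (left) and rRNA-depleted libraries (right), with 95% intervals. Circles are the fit without a clutch term and squares the fit with clutch as a block, given where the comparison can be estimated; the interval at 4 h.p.f. in rRNA-depleted libraries runs from -1.02 to 0.45 without the block and from -0.32 to 0.11 with it.

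Polynem was higher in clutch C than in clutch A at every stage sampled in both. This comparison was added after the values had been seen. At the 4 stages sampled in both clutches, C held 2.32 times the TPM of A in the egg, 2.15 times at 2 h.p.f., 1.83 times at 3 h.p.f. and 1.45 times at 4 h.p.f. in poly(A)+ libraries. In rRNA-depleted libraries of the same samples C held 1.75, 2.12, 1.86 and 1.77 times the TPM of A at those stages. Clutch C was higher than A in 8 of 8 library pairs, with no overlap between the clutches: 33.0 to 43.3 TPM in C and 17.2 to 22.8 TPM in A for poly(A)+ libraries, and 45.5 to 64.9 TPM in C and 25.7 to 35.7 TPM in A for rRNA-depleted libraries. In a fit with stage and clutch as terms, the difference of C over A was 0.79 on the log2 scale in poly(A)+ libraries (SE 0.14) and 0.77 in rRNA-depleted libraries (SE 0.071).

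The comparison of clutches was prompted by these same values, and each side is 1 clutch whose stages stand in for replicates, so no p-value is given and the fitted differences describe these libraries only. A log2 difference between C and A of at least Polynem's size was reached by 6.13% of genes in poly(A)+ libraries and by 7.06% in rRNA-depleted libraries. With stages standing in for replicates, these fits called 2.95% of all genes between C and A in poly(A)+ libraries. In rRNA-depleted libraries they called 37.9%, so a difference between these clutches is not particular to Polynem. Leaving out each of the libraries of these clutches in turn kept the difference between 0.69 and 0.92 in poly(A)+ libraries and between 0.71 and 0.86 in rRNA-depleted libraries. Clutch D stood above A by 0.78 on the log2 scale in poly(A)+ libraries (SE 0.24) and by 0.85 in rRNA-depleted libraries (SE 0.13). D against C gave -0.004 in poly(A)+ libraries (SE 0.24) and 0.08 in rRNA-depleted libraries (SE 0.13). Clutch D shares only the egg with A and C. Its differences from them thus rest on 1 clutch D egg library per library type, with a spread borrowed from other groups. What sets clutch A apart is not in the labels.

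Clutch A holds the lowest egg library in each type, and the comparisons with the egg were repeated without it. In a fit without clutch A, which was added after the values had been seen, Polynem in poly(A)+ libraries was lower than the eggs of C and D at 5 h.p.f. (log2 fold change -0.996, edgeR adjusted p = 0.0132), 6 h.p.f. (-0.87, adjusted p = 0.0146), 24 h.p.f. (-0.82, adjusted p = 9.50e-04), 48 h.p.f. (-0.66, adjusted p = 0.00427), 72 h.p.f. (-0.49, adjusted p = 0.0246), in Triptolide (-0.61, adjusted p = 0.0203) and in DMSO (-0.50, adjusted p = 0.0314). In that fit 18.2% and 27.6% of all genes were called at 5 and 6 h.p.f., 72.4%, 72.7% and 73.7% at the 3 larval stages in order of age, 24.7% in Triptolide and 46.0% in DMSO. In the fit with all clutches 0 of these 7 were called. In rRNA-depleted libraries without clutch A, Polynem was called lower than the egg at 5 h.p.f. (-0.51, adjusted p = 0.0260, where 21.2% of genes were called) and in DMSO (-0.30, adjusted p = 0.0188, where 64.3% were called), and with all clutches the value at 5 h.p.f. was -0.31 (adjusted p = 0.818). Of 38 stage and treatment comparisons that could be fitted without clutch A, 11 were called. The call of a lower level than the egg at these times thus changes with clutch A in the fit. Clutch A was left out because its egg was low, so these calls show that dependence and are not independent evidence of a lower level.

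Larval libraries held the least Polynem in TPM. At 24, 48 and 72 h.p.f. Polynem had 17.3, 15.8 and 16.2 TPM in poly(A)+ libraries of clutch E and 18.9, 17.5 and 17.2 TPM in those of clutch F, against 31.8 and 27.8 TPM at 7 h.p.f. in clutches B and D and 18.7, 43.3 and 39.1 TPM in the eggs. The 6 larval libraries lay within 15.8 to 18.9 TPM, and only 3 of the 19 earlier poly(A)+ libraries, all of clutch A, fell below the highest of them. In TMM-scaled CPM, counts scaled by library size, where a factor sets the bulk of genes level between libraries, the larvae held 22.9 to 33.4 against 18.5 to 38.4 in the eggs, so on that scale the groups overlap. The median log2 fold change of all genes over the egg was 0.76 at 24 h.p.f., and Polynem's own was -0.35 (SE 0.30, adjusted p = 0.303) at 24 h.p.f., -0.18 (adjusted p = 0.599) at 48 h.p.f. and 0.01 (adjusted p = 0.998) at 72 h.p.f. With library size alone in place of TMM they were -0.66, -0.65 and -0.47, and with RLE size factors -0.16, 0.04 and 0.25, none of them called, so the direction at 48 and 72 h.p.f. turns with the scaling. The share of all genes called was 75.6% at 24 h.p.f., then 75.5% and 76.1% at the later larval stages. Without the clutch A egg Polynem was called lower at 24 h.p.f. (-0.87, edgeR adjusted p = 0.00905) and 48 h.p.f. (-0.71, edgeR adjusted p = 0.0274). Of 18912 genes, 13684 and 13713 were called in these comparisons. The clutch A egg is the lowest egg library, so leaving it out raises the egg mean. Larval and earlier clutches share no letter, so stage and clutch cannot be told apart there.

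Triptolide was compared with DMSO to see whether Polynem RNA at 7 h.p.f. needs new transcription. In poly(A)+ libraries Polynem had 26.2 and 27.1 TPM in Triptolide, against 31.1 and 24.3 TPM in DMSO, for clutches D and G in that order. The treated values lie between the vehicle values, and the log2 fold change of -0.09 was not called (SE 0.33, 95% interval -0.78 to 0.59, adjusted p = 0.928, where 23.9% of genes were called). In rRNA-depleted libraries Polynem had 65.9 and 64.4 TPM in Triptolide, against 37.5 and 42.9 TPM in DMSO. Both Triptolide libraries were higher than both DMSO libraries, by 1.76 times in clutch D and 1.50 times in clutch G. The log2 fold change of 0.52 was not called without a clutch term (SE 0.37, edgeR adjusted p = 0.301, where 32.3% of genes were called). RLE size factors gave 0.31, also not called (adjusted p = 0.585). The change was called with clutch as a replicate block (0.52, SE 0.11, 95% interval 0.29 to 0.75, adjusted p = 8.59e-04, where 48.1% were called). The block left the estimate unchanged, while the spread fitted for Polynem over all rRNA-depleted libraries fell from 0.25 to 0.063 (coefficient of variation). Clutches A and C enter that spread, and only D and G are compared here. Differences per gene between D and G correlated at -0.02 from Triptolide to DMSO, so this pairing showed no shared clutch difference. The change was called as well with only the libraries of these 2 groups (0.35, edgeR adjusted p = 0.0143, where 47.8% were called). It was also called without clutch A (0.45, edgeR adjusted p = 0.00187, where 50.3% were called), a fit added after the values had been seen. All these fits compare the same libraries of clutches D and G and differ in scaling and spread, so they are not separate evidence.

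Composition moved with this difference. Histone-scaffold gene models made up 0.858% of the TPM total in Triptolide and 15.2% in DMSO in rRNA-depleted libraries. Without them Polynem had 66.5 and 65.0 TPM in Triptolide, against 44.7 and 50.0 TPM in DMSO, a ratio of 1.49 in clutch D and 1.30 in clutch G. The groups, of 2 libraries each, still did not overlap, and how many gene models separate in the same way was not counted. The study places histone genes on several scaffolds, and those whose counts match no HyS0385 model stayed in the total. A rise of a relative level where other transcripts are missing and a rise in the amount of Polynem RNA cannot be told apart in these data.

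Clutch D allows both treatments to be set against an egg of the same clutch. In clutch D, rRNA-depleted libraries held 65.9 TPM in Triptolide and 37.5 TPM in DMSO against 65.9 TPM in the egg. Without the histone-scaffold models the ratio to this egg was 1.00 in Triptolide and 0.675 in DMSO. With the clutch block, Polynem in DMSO was lower than the egg by 0.47 on the log2 scale (SE 0.14, 95% interval -0.77 to -0.17, edgeR adjusted p = 0.0118, where 43.7% of genes were called), whereas without it the value was -0.18 (adjusted p = 0.687). DMSO was also called lower than 3 h.p.f. with the block (-0.52, SE 0.17, edgeR adjusted p = 0.0283, where 33.2% of genes were called) and not without it (-0.08, adjusted p = 0.877). The 3 h.p.f. libraries are of clutches A and C and share no clutch with DMSO. In the block fit the treated embryos meet the egg and 3 h.p.f. only through the single clutch D egg library. Triptolide against the egg gave 0.05 with the block (95% interval -0.23 to 0.33, adjusted p = 0.900, where 29.3% were called) and 0.34 without it (adjusted p = 0.527). In poly(A)+ libraries of clutch D the levels were 26.2 TPM in Triptolide, 31.1 TPM in DMSO and 27.8 TPM in untreated 7 h.p.f. embryos against 39.1 TPM in the egg, all 3 below it, and with the block the changes from the egg of -0.42 in Triptolide (adjusted p = 0.339, where 17.7% of genes were called) and -0.34 in DMSO (adjusted p = 0.350, where 29.9% were called) were not called. DMSO against untreated 7 h.p.f. embryos gave -0.03 in poly(A)+ libraries (95% interval -0.73 to 0.66) and -0.31 in rRNA-depleted libraries (95% interval -1.33 to 0.72), neither of them called.

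**Figure D3:**
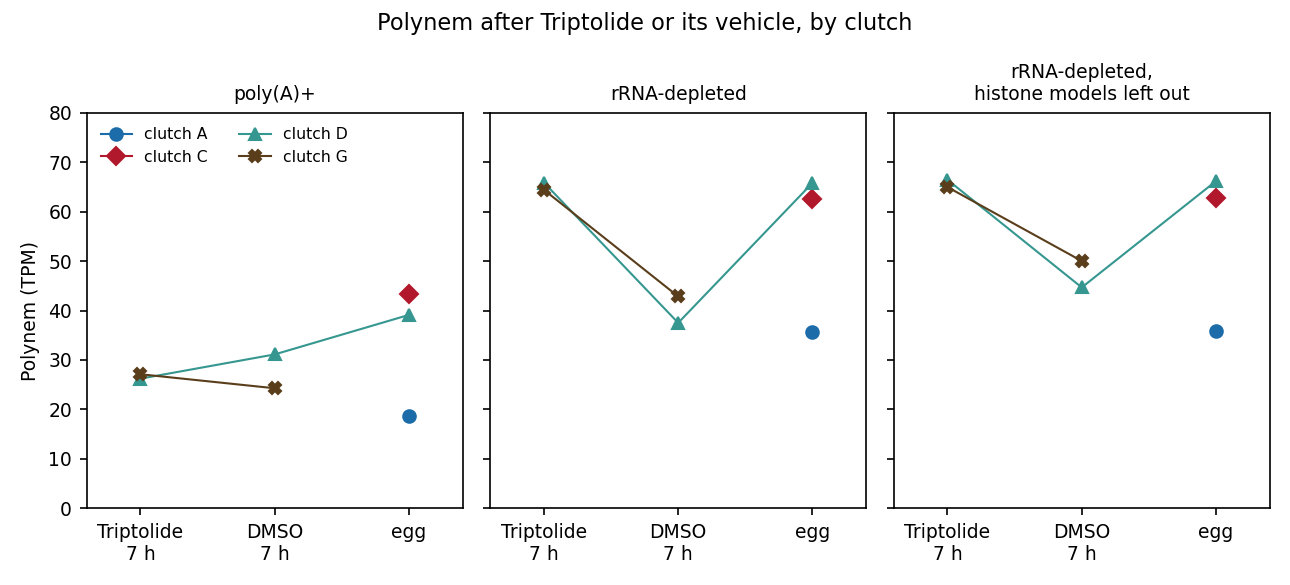
Polynem level in TPM (y axis) in 7 h.p.f. embryos kept in Triptolide, 7 h.p.f. embryos kept in DMSO and unfertilized eggs (x axis), for poly(A)+ libraries, rRNA-depleted libraries and rRNA-depleted libraries with the histone-scaffold gene models left out of the total. Symbols are single libraries and lines join those of 1 clutch; in rRNA-depleted libraries the Triptolide values of 65.9 and 64.4 TPM lie above the DMSO values of 37.5 and 42.9 TPM, and in poly(A)+ libraries they lie between the DMSO values.

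Each of 18 samples was split into a poly(A)+ and an rRNA-depleted library, so tailed RNA can be compared with rRNA-depleted RNA of the same sample. Polynem had fewer TPM in the poly(A)+ library in 18 of 18 samples. The ratio of poly(A)+ to rRNA-depleted TPM had a median of 0.584, and it ran between 0.398, in Triptolide embryos of clutch D, and 0.888, in 4 h.p.f. embryos of clutch A. It was 0.398 and 0.421 in Triptolide, against 0.830 and 0.566 in DMSO, for clutches D and G, and 0.524, 0.693 and 0.594 in the eggs of clutches A, C and D. The lowest ratio of the untreated series was 0.447, in the single library pair at 6 h.p.f. These ratios set TPM of differently selected RNA side by side, so they are relative to the other transcripts of each library and are not a share of tailed molecules. The study takes recovery by poly(A) selection to vary with tail length, so tail length and the tailed share cannot be told apart here.

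In the fit of all 43 libraries without a sample term Polynem was called lower in poly(A)+ libraries at 0 of 11 stages and treatments, with -0.48 on the log2 scale in the egg (SE 0.28, adjusted p = 0.246, where 27.5% of 19461 genes were called). With the sample as a replicate block, which uses that both libraries came from the same RNA, it was called lower at 9 of 11. The stages at 0.5, 1, 5, 6 and 7 h.p.f. hold 1 such pair each and borrow their spread from the others. The values were -0.50 in the egg (SE 0.09, adjusted p = 3.59e-05, where 39.8% of genes were called), -0.55 at 2 h.p.f. (adjusted p = 1.40e-04), -0.69 at 3 h.p.f. (adjusted p = 8.94e-06), -0.42 at 4 h.p.f. (adjusted p = 0.00291), -0.69 at 5 h.p.f. (adjusted p = 0.0437), -1.15 at 6 h.p.f. (adjusted p = 1.28e-04), -0.65 at 7 h.p.f. (adjusted p = 0.0183), -0.87 in Triptolide (adjusted p = 2.95e-07) and -0.43 in DMSO (adjusted p = 0.00524). At 0.5 and 1 h.p.f. the values of -0.15 (adjusted p = 0.925) and -0.35 (adjusted p = 0.117) were not called. The share of all genes called was 38.9%, 38.2%, 39.9%, 26.5%, 27.7% and 22.1% in hourly order from 2 to 7 h.p.f., 41.2% in Triptolide, 39.2% in DMSO, and 23.8% and 30.4% at 0.5 and 1 h.p.f. The median over all genes lay between 0 and 0.02 in these comparisons.

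The library types were not shown to differ in how Polynem changed. With the sample block, the change from the egg differed by -0.65 on the log2 scale at 6 h.p.f. (adjusted p = 0.0566) and by -0.37 in Triptolide (adjusted p = 0.0598), poly(A)+ minus rRNA-depleted. The effect of Triptolide against DMSO differed by -0.44 (SE 0.16, 95% interval -0.78 to -0.10, adjusted p = 0.117, where 8.59% of genes were called). Without the block that difference was -0.45 (SE 0.49, adjusted p = 1, where 3.52% were called).

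**Figure D4:**
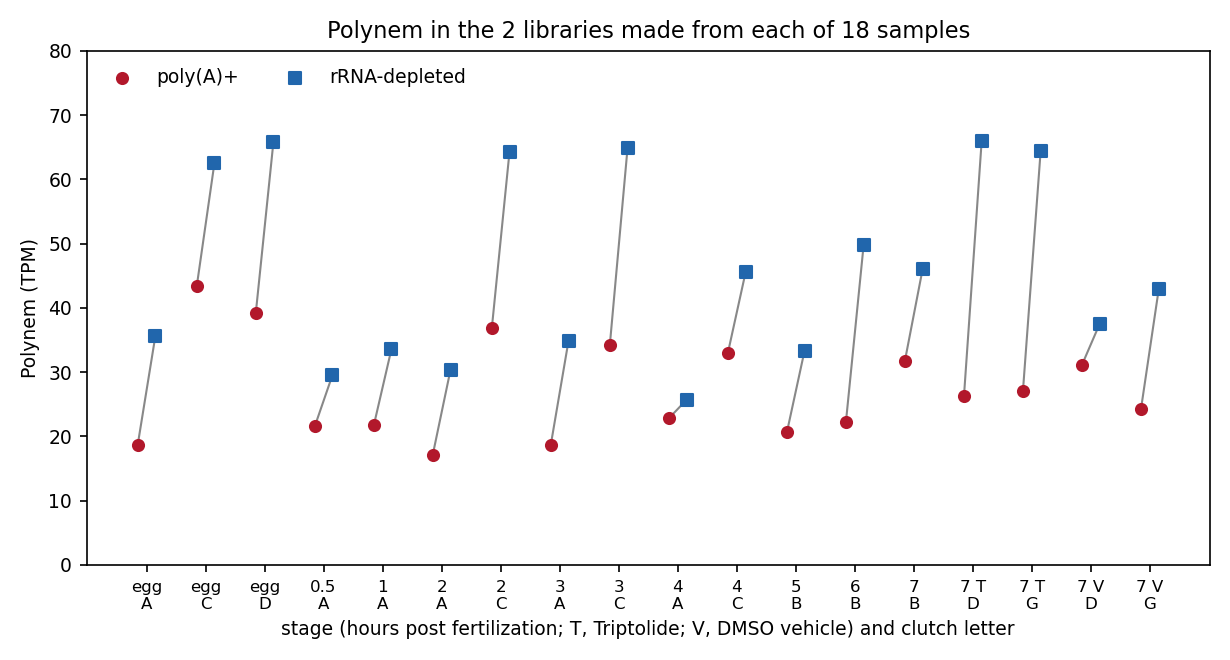
Polynem level in TPM (y axis) in the poly(A)+ library (circles) and the rRNA-depleted library (squares) of each of 18 samples, ordered by stage, treatment and clutch (x axis). Lines join the libraries of 1 sample; the poly(A)+ value is the lower one in 18 of 18, and the widest gap is in Triptolide embryos of clutch D, with 26.2 TPM for poly(A)+ against 65.9 TPM for rRNA-depleted RNA.

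Polynem was set beside 6 other transcription factor genes named in the study. The study chose these on the same samples for large changes, either a drop after the egg or activation in the embryo, and took in Polynem apart from that choice, so the wider ranges and the calls of the other 6 are set by the choice and nothing is read from them about Polynem. They were Sox4-like (HyS0005.469) of the SOX family, Rfx7-like (HyS0003.78) of the RFX family, E2f2-like (HyS0045.22) of the E2F family known for cell cycle control, Etv3-like (HyS0030.200) of the ETS family, a forkhead-domain gene (HyS0062.47), and Sp5-like (HyS0057.112), a zinc finger gene of a family known in animals as targets of Wnt signalling. At 24 h.p.f. in poly(A)+ libraries 6 of these 6 were called against the egg, 2 higher and 4 lower, beside 75.6% of all genes. At 7 h.p.f. 3 of 6 were called in poly(A)+ libraries (2 higher, 1 lower), beside 48.3% of all genes. In rRNA-depleted libraries 4 of 6 were called (3 higher, 1 lower), beside 42.7% of all genes. The ratio of the highest to the lowest untreated poly(A)+ stage mean was 2.03 for Polynem, 9.36 for Sox4-like, 59.2 for E2f2-like, 181 for Sp5-like, 193 for Rfx7-like, 219 for Etv3-like and 4209 for the forkhead-domain gene, whose lowest mean was 0.117 TPM.

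The 4 factors called lower at 24 h.p.f. were abundant in the egg. E2f2-like held 47.9 ± 13.9 TPM at 24 h.p.f. (SD, n = 2), against 348 ± 55.7 TPM in the egg (SD, n = 3), and Rfx7-like 19.9 ± 3.54 TPM against 368 ± 44.2 TPM. Etv3-like fell further, to 0.757 ± 0.641 TPM at 24 h.p.f. against 166 ± 4.92 TPM in the egg. Polynem held 18.1 ± 1.16 TPM at 24 h.p.f. (SD, n = 2), against 33.7 ± 13.2 TPM in the egg (SD, n = 3). In rRNA-depleted libraries up to 7 h.p.f. the same ratio of stage means was 1.85 for Polynem, above 1.38 for E2f2-like, 1.50 for Sox4-like and 1.58 for Rfx7-like and below 5.40 for Etv3-like.

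Triptolide separated the list in another way. The forkhead-domain gene held 0.519 TPM in Triptolide, against 512 TPM in DMSO, and Sp5-like 1.47 TPM in Triptolide, against 91.5 TPM in DMSO, as means of 2 poly(A)+ libraries each. Both were called lower in both library types, and Polynem was called lower in neither. In rRNA-depleted libraries Etv3-like was called higher in Triptolide, at 72.0 ± 2.55 TPM against 29.7 ± 6.15 TPM in DMSO (SD, n = 2 each), with 1.11 on the log2 scale (SE 0.15). Polynem had 65.9 and 64.4 TPM in Triptolide against 37.5 and 42.9 TPM in DMSO. Its value of 0.52 was not called in the same fit, which has no clutch term. Rfx7-like at 0.15, E2f2-like at 0.14 and Sox4-like at -0.35 were not called.

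**Figure D5:**
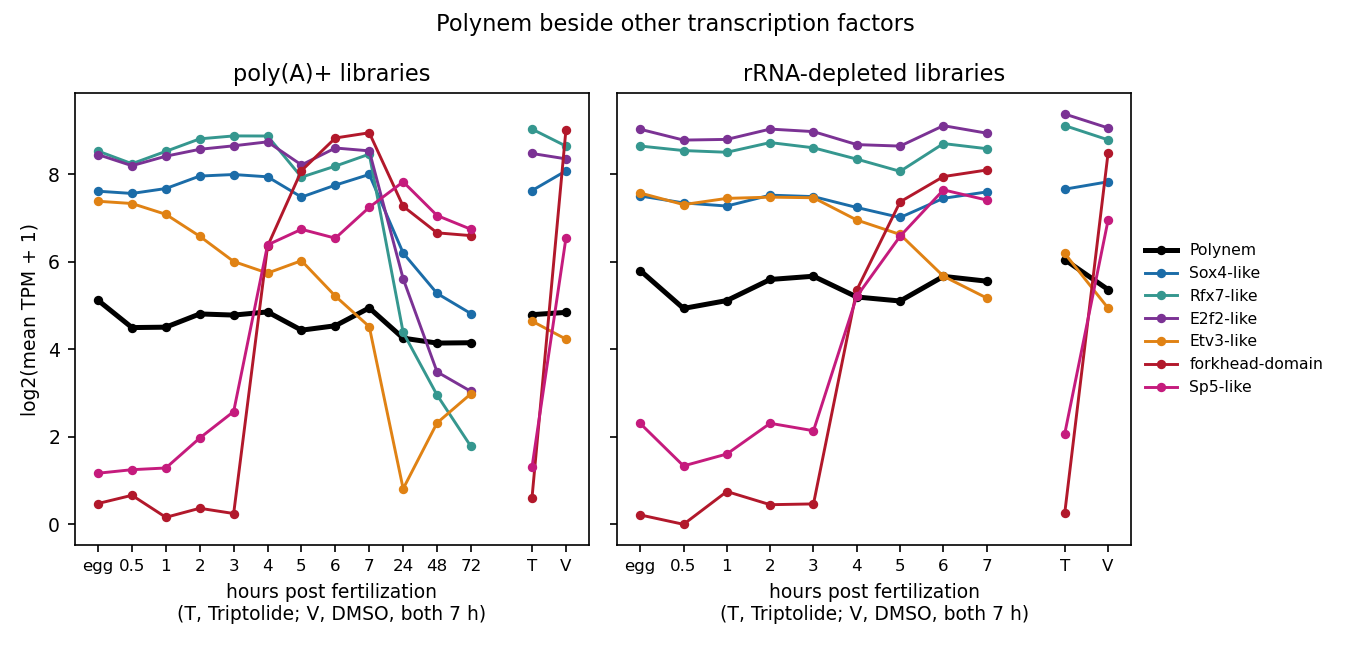
Log2 of the mean TPM plus 1 (y axis) of Polynem (thick black line) and 6 other transcription factor genes by stage in hours post fertilization (x axis), with 7 h.p.f. embryos in Triptolide (T) and DMSO (V) set apart at the right of each panel, for poly(A)+ libraries (left) and rRNA-depleted libraries (right). Polynem stays between 16.6 and 33.7 TPM over the untreated poly(A)+ stages, while the forkhead-domain gene spans 0.117 to 492 TPM.

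The clutches can be compared for the 4 factors abundant in the egg as well. The ratio of clutch C to clutch A at the 4 shared stages ran between 1.45 and 2.32 for Polynem in poly(A)+ libraries, between 1.11 and 1.19 for Sox4-like, 1.11 and 1.36 for Rfx7-like, 1.20 and 1.38 for E2f2-like and 0.917 and 1.05 for Etv3-like. In rRNA-depleted libraries it ran between 1.75 and 2.12 for Polynem and between 1.07 and 1.57 for these 4 genes. The ranges for Polynem and for these 4 do not overlap in either library type. Sp5-like, at 1.25 TPM in the poly(A)+ egg, and the forkhead-domain gene, at 0.390 TPM, are not among these 4. The ratio for Sp5-like ran between 0.162 and 2.26 in poly(A)+ and between 0.287 and 2.27 in rRNA-depleted libraries. Its lowest values were at 4 h.p.f., and its ranges overlap Polynem's. The difference between the genes was not tested.

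The gene models with the profile nearest to Polynem's were HyS0610.4 (Pearson r = 0.87) and HyS0068.88 (r = 0.86), over 25 group means of log2(TMM-scaled CPM + 1) centred within each library type, among 17561 gene models with at least 1 TPM in some group. The median r of all of them was 0.14. The points share libraries, normalization and clutches, and r is a description. Both gene models also held more in clutch C than in A, by 1.28 to 1.79 times and 1.25 to 1.49 times in poly(A)+ libraries, and by 1.80 to 2.58 times and 1.52 to 1.82 times in rRNA-depleted libraries. Neither was among the nearest 2 when log2(TPM + 1) or the 43 single libraries were used instead. Of the transcription factors, Sp5-like had the highest r at 0.31 and Etv3-like the lowest at -0.37. On the TPM scale the highest was Sox4-like at 0.64, and Sp5-like had -0.22.

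The gene model with the next identifier on the scaffold, HyS0098.15, was close to Polynem in level. Its TPM was 0.902 to 1.81 times Polynem's in the 25 poly(A)+ libraries (median 1.23) and 0.704 to 1.68 times in the 18 rRNA-depleted libraries (median 1.12). It too was higher in clutch C than in A, by 1.17 to 1.51 times in poly(A)+ and 1.45 to 2.01 times in rRNA-depleted libraries. Its r with Polynem was 0.31 over the group means, 0.52 over the 43 libraries and 0.65 over group means on the TPM scale. Its levels were 48.1 and 53.6 TPM in Triptolide against 42.4 and 34.1 TPM in DMSO in rRNA-depleted libraries. HyS0098.13, on the other side, had a median of 17.2 times Polynem's TPM in poly(A)+ libraries and r = -0.33, which turned to 0.47 on the TPM scale. Its ratio of clutch C to A was 0.998 to 1.09 in poly(A)+ and 1.09 to 1.31 in rRNA-depleted libraries.

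At 7 h.p.f. against the egg 15 of 62 tested models of HyS0098 were called higher and 20 lower in poly(A)+ libraries, beside 48.3% of all genes, with a median log2 fold change of -0.20 on the scaffold and 0.13 over all genes. In Triptolide against DMSO in rRNA-depleted libraries 11 of 58 were called higher and 6 lower, beside 32.3% of all genes.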

How the data were processed

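RNA was measured in 25 poly(A)+ and 18 rRNA-depleted libraries, with 2 further pilot libraries used in no comparison. Per the labels and methods, the authors trimmed reads with Trim Galore 0.6.6 and cutadapt 1.15 and deposited estimated counts that kallisto 0.46.1 assigned, by strand, to the protein-coding gene models of the Hsym 1.0 assembly. Counts were rounded to whole numbers. TPM was computed from these counts and the coding length. Genes with at least 10 counts over the libraries of a fit entered the quasi-likelihood F test of edgeR 4.0.16 in R 4.3.3 (TMM scaling, two-sided, Benjamini-Hochberg adjustment over all genes tested, threshold 0.05), with 1 fit per library type holding all its groups and 1 joint fit for differences between library types. Groups and clutches come from the labels. The clutch letters are the labels' collection groups and pair samples, and both libraries of a sample share its RNA. As a check, differences per gene between clutches A and C correlated from stage to stage at r = 0.38 to 0.68 (poly(A)+) and 0.56 to 0.76 (rRNA-depleted), those between D and G from Triptolide to DMSO at 0.03 and -0.02, and those between the larval clutches E and F at -0.36 to -0.003 (poly(A)+). Alternatives were DESeq2 1.42.0, other scalings and filters, the clutch or sample as a block, and leaving out libraries. Polynem, the transcription factor list and the tests were chosen with earlier results of these data known. The genes named besides these are the 2 gene models most like Polynem by correlation and the models beside it by identifier. Where the labels do not say that clutches come from separate parents, p-values measure only the spread between these samples. No sequence is printed.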

Additional observations from a re-analysis of the deposited data

Results flagged for a closer look

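Polynem RNA was also present in 2 pilot libraries made at 1 h.p.f., which stand outside every comparison. The poly(A)+ pilot library held 35.5 TPM (286 counts of 7902891), above the 0.372 TPM that 3 counts would give. The library made without selection held 63.0 TPM (29 counts of 548655), above the 6.52 TPM that 3 counts would give there. Their clutch is not in the labels, and there is no control library to set them against.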

How the results depend on the processing

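Of 786 recomputed values of 70 tested results, 748 kept their direction or stayed uncalled on the same side of the threshold, and in 61 of these the sign differed with neither value called. Depth limits clutch B most in poly(A)+ libraries and clutch A at 0.5 h.p.f. where rRNA was depleted, and groups of 1 library borrow their spread from the others. With the clutch letter as a replicate block, called changes in rRNA-depleted libraries were Triptolide over DMSO at 0.52, DMSO over the egg at -0.47 and DMSO over 3 h.p.f. at -0.52 on the log2 scale. In that fit DMSO meets the egg and 3 h.p.f. only through the clutch D egg library. With the sample as a replicate block, poly(A)+ over rRNA-depleted was called at -0.50 in the egg, at -0.55, -0.69, -0.42, -0.69, -1.15 and -0.65 from 2 to 7 h.p.f. in hourly order, at -0.87 in Triptolide and at -0.43 in DMSO. The pairing comes from the labels, and 5, 6 and 7 h.p.f. hold 1 pair each.

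In the fit without clutch A, chosen after seeing the data, changes over the egg became called for poly(A)+ RNA, with -0.996 (5 h.p.f.), -0.87 (6 h.p.f.), -0.82 (24 h.p.f.), -0.66 (48 h.p.f.), -0.61 (Triptolide) and -0.50 (DMSO), and the value at 72 h.p.f. turned to -0.49 and was called. In rRNA-depleted libraries that fit called -0.51 at 5 h.p.f. and -0.30 in DMSO over the egg, 0.55 at 6 over 5 h.p.f. and 0.45 for Triptolide over DMSO. The comparisons of 6 with 5 h.p.f. and of Triptolide with DMSO hold no clutch A library, so only their scaling and spread changed. With only the libraries of the groups compared, Triptolide over DMSO in rRNA-depleted libraries was 0.35, and poly(A)+ over rRNA-depleted was -0.51 in DMSO and -1.01 in Triptolide. The value in Triptolide was also called with DESeq2 (-1.04), RLE size factors (-1.04), edgeR's filterByExpr (-1.05), no filter (-0.87) and without clutch B (-1.05), and the cause was not tested.

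Leaving out 1 library in turn gave -0.87 to -0.27 at 24 h.p.f. and -0.71 to -0.079 at 48 h.p.f. over the egg, called only without the clutch A egg. For clutch C over A it gave 0.69 to 0.92 in poly(A)+ libraries and 0.71 to 0.86 in rRNA-depleted libraries. Among other uncalled values, RLE size factors moved these by over 1.5 times: 7 h.p.f. over the egg to -0.09 (poly(A)+) and 0.30 (rRNA-depleted), and in rRNA-depleted libraries DMSO over the egg to -0.04, 6 h.p.f. over the egg to 0.31 and Triptolide over DMSO to 0.31. On TMM-scaled CPM in place of TPM, the ratio of larval to egg means was 0.785, 0.883 and 1.00 at 24, 48 and 72 h.p.f.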
